A study of Mus musculus with 4 samples.

Results

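Immediate early genes are transcribed within minutes of a stimulus by factors that are already in the cell, and the same genes respond to the digestion that frees cells from a tissue. The 41 genes described here are a named set of such immediate early and dissociation-response genes, chosen by symbol as rows of the table of normalized CPM (read counts scaled to a common library size), and all 41 were among the 18781 genes listed. All 41 also passed the expression filter of at least 1 CPM in at least 2 libraries, as did 12797 genes in all. RNA came from mature adipocytes of C57BL/6 mice, an inbred strain with no transgene named in the labels, at postnatal day 30. Cells from the fat of the dorsal skin (labelled dWAT, called dermal here) gave 2 libraries, and cells from the inguinal subcutaneous fat (labelled sWAT, called inguinal here) gave 2. Both tissues were digested with the enzymes collagenase IV and dispase II, and the fat cells were collected by flotation, so every library had passed through a dissociation step and no undissociated tissue serves as a reference. The labels do not give the sex of the mice, whether animals were pooled, or whether the replicates came from separate animals. The p-values therefore reflect no more than library-to-library spread, and this may be technical.

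A stimulus reaches these genes through the kinases ERK, JNK and p38, which act on serum response factor with its ETS partners, and through CREB. The products are mostly transcription factors, among them the Fos and Jun proteins that pair as AP-1 and the EGR, KLF and NR4A families, together with phosphatases and RNA-binding proteins that shut the response down again. The messenger RNAs are usually short-lived. In fat, the family is known for its induction by growth factors, adrenergic signals and injury.

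Recovered reads numbered 10127125 to 12730013 per library. The adipocyte transcripts Adipoq, Plin1, Fabp4 and 10 further markers summed to 67842 and 66119 CPM in dermal replicates 1 and 2. In inguinal replicates 1 and 2 they summed to 67506 and 63444 CPM. Adipocyte transcripts were thus abundant in every library, and markers of other cells, given below, were also present. Across all tested genes, 1126 passed on the inguinal side and 968 on the dermal side (limma on log2(CPM + 0.5), two-sided, Benjamini-Hochberg adjusted p below 0.05). These are 8.80% and 7.56% of the genes tested. Without dermal replicate 1 the counts were 568 and 455, and without dermal replicate 2 they were 698 and 339. In the fit of all libraries, 0 of the 13 adipocyte markers passed on the inguinal and 2 on the dermal side. In bulk libraries such as these, fewer cells of a type and less RNA per cell cannot be told apart.

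The set as a whole lay higher in inguinal libraries. The set was chosen with earlier results of these data known, so its shares describe it and are not an independent test. Of the 41 genes, 27 were higher in inguinal libraries against a background of 8.80% of tested genes, and 14 did not pass. None was higher in dermal libraries, where the background was 7.56%, or 4.17% with a difference of at least 1 on the log2 scale. The count higher in dermal libraries was also 0 at an unadjusted p below 0.05, in edgeR and in DESeq2. Of the 27 genes, 24 differed by at least 1 on the log2 scale, which 5.74% of tested genes did in that direction. The 41 log2 fold changes, dermal over inguinal, had a median of -1.41, and 39 were negative, against a median of 0.02 and 48.6% negative over all tested genes. In 35 of the 41 genes both inguinal libraries exceeded both dermal libraries, which was so for 30.1% of tested genes. The opposite arrangement occurred for 0 of the 41 and for 31.6% of tested genes. The 41 genes summed to 4230 and 5996 CPM in the dermal libraries and to 11081 and 11979 CPM in the inguinal libraries. This corresponded to 0.431% and 0.624% of dermal reads and to 1.03% and 1.22% of inguinal reads. The median log2 fold change was -1.04 without dermal replicate 1 and -1.61 without dermal replicate 2, and the count of genes higher in inguinal libraries was 23 (background 4.44%) and 33 (background 5.45%).

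**Figure D1:**
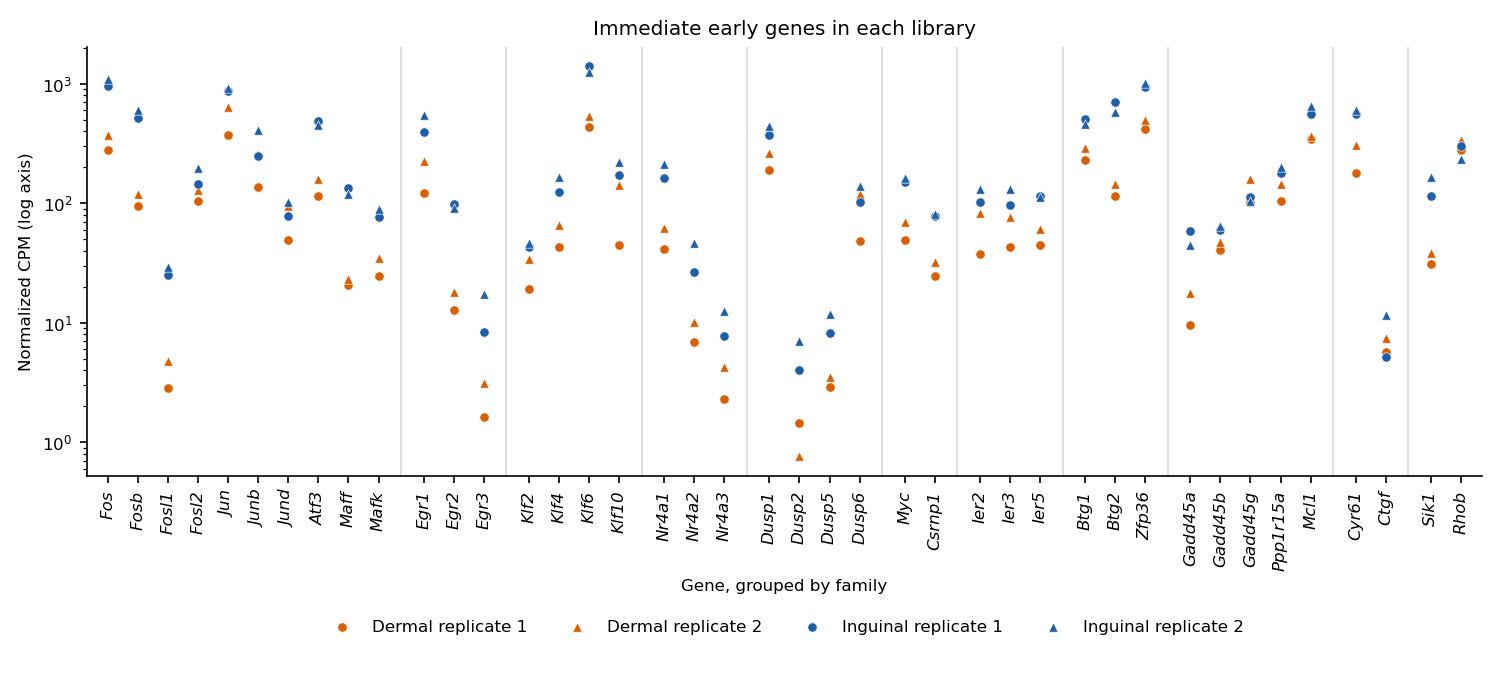
Normalized CPM (log axis) of each of the 41 immediate early genes, grouped by family and separated by vertical lines, with 1 point per library (orange, dermal; blue, inguinal; circles, replicate 1; triangles, replicate 2). In 35 genes both blue points lie above both orange points, and the points of Junb, Jund, Dusp6, Gadd45g, Ctgf and Rhob overlap between depots.

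Promoter sequence was compared because these genes are known to share regulatory sites, namely the CArG box bound by serum response factor, the cyclic AMP response element TGACGTCA, the AP-1 site TGANTCA, the EGR site GCGNGGGCG and the TATA sequence TATAAA. Promoter windows from RefSeq on GRCm38.p6 (the mm10 assembly), reaching from 250 bases before to 50 after an annotated start, were found for 33 of the 41 genes, and those of Ctgf, Egr1, Egr3, Fosl1, Ier2, Klf10, Myc and Sik1 were not used here. Both strands were searched. A CArG box was present in 3 of 33 genes (Dusp5, Egr2 and Zfp36), in 14.3% of the 42 member windows and in 1.63% of all 32851 windows. The EGR site was present in 12 genes and in 28.6% of member windows, against 5.55% of all windows. Member windows had a median GC content of 63.3% and all windows one of 52.7%, and how far GC content accounts for the share of this GC-rich site was not tested. The cyclic AMP response element was present in Btg2, Dusp1, Maff and Ppp1r15a (9.52% of member windows, 1.79% of all windows). The TATA sequence occurred in 19.0% of member and 13.6% of all windows, and the AP-1 site in 1 member, Csrnp1 (2.38% of member and 7.81% of all windows). Several windows of Egr2 overlap each other and share a CArG box, so windows are not independent. By gene, the CArG box was found in 9.09% of the 33 and in 1.57% of the 9550 tested genes with a window. For the EGR site these shares were 36.4% and 12.2%, and for the cyclic AMP response element 12.1% and 3.59%. The TATA sequence was found in 24.2% and 9.04%, and the AP-1 site in 3.03% and 6.32%.

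The following 6 promoters are shown because their genes were higher in inguinal libraries and their windows hold these sites; capitals mark CArG boxes, cyclic AMP response elements and EGR sites, and each sequence reads 5′ to 3′ along the strand of the gene. Dusp5 (chr19:53528895-53529194, plus strand) holds adjoining CArG boxes, and Egr2 (chr10:67537619-67537918, plus strand) holds 1. Zfp36 (chr7:28379179-28379478, minus strand) holds a CArG box and an EGR site. Maff (chr15:79347270-79347569, plus strand) and Btg2 (chr1:134079106-134079405, minus strand) each hold a cyclic AMP response element and an EGR site. Fosb (chr7:19309996-19310295, minus strand) holds an EGR site.
Dusp5: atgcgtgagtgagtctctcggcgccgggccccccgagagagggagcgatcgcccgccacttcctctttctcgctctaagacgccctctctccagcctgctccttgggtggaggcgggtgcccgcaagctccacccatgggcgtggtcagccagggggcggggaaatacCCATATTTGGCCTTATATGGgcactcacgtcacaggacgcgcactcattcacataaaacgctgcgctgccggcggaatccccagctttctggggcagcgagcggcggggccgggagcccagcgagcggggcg
Egr2: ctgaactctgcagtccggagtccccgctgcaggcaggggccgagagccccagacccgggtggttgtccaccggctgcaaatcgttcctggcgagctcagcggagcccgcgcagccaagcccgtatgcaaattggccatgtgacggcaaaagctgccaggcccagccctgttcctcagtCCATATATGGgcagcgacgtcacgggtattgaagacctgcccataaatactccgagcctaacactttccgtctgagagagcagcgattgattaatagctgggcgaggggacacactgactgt
Zfp36: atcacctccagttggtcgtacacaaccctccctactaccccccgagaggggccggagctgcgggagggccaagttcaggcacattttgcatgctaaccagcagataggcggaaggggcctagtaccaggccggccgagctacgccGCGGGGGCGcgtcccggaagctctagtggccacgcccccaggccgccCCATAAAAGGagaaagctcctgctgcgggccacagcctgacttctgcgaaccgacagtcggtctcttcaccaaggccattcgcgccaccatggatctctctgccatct
Maff: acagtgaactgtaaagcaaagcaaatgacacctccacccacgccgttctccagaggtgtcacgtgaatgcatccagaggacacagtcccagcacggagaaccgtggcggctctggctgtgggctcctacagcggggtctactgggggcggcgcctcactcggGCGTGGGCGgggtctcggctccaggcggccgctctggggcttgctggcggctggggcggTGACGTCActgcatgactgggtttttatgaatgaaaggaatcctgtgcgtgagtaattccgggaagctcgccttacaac
Btg2: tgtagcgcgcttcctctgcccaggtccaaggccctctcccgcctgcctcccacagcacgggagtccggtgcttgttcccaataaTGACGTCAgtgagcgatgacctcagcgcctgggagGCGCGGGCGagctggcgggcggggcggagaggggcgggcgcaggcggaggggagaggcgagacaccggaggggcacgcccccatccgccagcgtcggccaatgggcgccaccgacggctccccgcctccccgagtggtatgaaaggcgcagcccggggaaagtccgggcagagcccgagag
Fosb: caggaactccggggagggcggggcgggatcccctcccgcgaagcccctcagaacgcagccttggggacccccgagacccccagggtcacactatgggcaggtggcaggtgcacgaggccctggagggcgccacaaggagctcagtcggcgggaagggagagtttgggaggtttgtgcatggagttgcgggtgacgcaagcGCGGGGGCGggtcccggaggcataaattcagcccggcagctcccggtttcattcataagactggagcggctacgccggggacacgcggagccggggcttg

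In these windows the CArG boxes of Dusp5 began 82 and 72 bases before the start site, that of Egr2 72 bases before it and that of Zfp36 58 bases before it. The cyclic AMP response elements began 29 bases before the start of Maff and 166 before that of Btg2. All 3 genes with a CArG box were among the 22 matched genes higher in inguinal libraries. None was among the 11 that did not pass. For the EGR site the numbers with the site were 9 of 22 and 3 of 11, and for the TATA sequence 4 of 22 and 4 of 11. As 22 of the 33 matched genes passed, 3 genes are too few to link the CArG box to the depot difference. Sites outside the windows were not searched, so a gene counted as without a site may hold one elsewhere. The median log2 fold change was -1.68 for the 12 genes with an EGR site and -0.97 for the other 21 matched genes. For the TATA sequence the order was the opposite, at -0.83 for the 8 genes with it and -1.45 for the other 25. A TATAAA match counted at any position on either strand, such as base 16 from the start in Ppp1r15a, and need not be a TATA box. Medians with and without the site were -1.49 and -1.22 for the CArG box and -1.57 and -1.32 for the cyclic AMP response element. For the AP-1 site, found in 1 gene, they were -1.48 and -1.22. All of these are descriptions without a test. A match describes letters in the window and does not show that a factor was bound there.

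The Fos genes encode the AP-1 subunits that must pair with a Jun protein to bind DNA. Fos stood at 280.0 and 371 CPM in the dermal libraries and at 948 and 1103 CPM in the inguinal libraries (a log2 fold change of -1.66 with SE 0.18, adjusted p = 0.003475). Fosb stood at 94.7 and 119 CPM against 520.3 and 606 CPM (-2.40, SE 0.16, adjusted p = 0.001564). Inguinal libraries thus held 3.15 times the dermal mean of Fos and 5.26 times that of Fosb, with no overlap between depots. Fosl1, which encodes the subunit Fra-1, measured 2.82 and 4.74 CPM in the dermal and 24.8 and 29.5 CPM in the inguinal libraries. Its log2 fold change of -2.72 (SE 0.26, adjusted p = 0.002773) was the lowest of the 41 and the 33rd lowest of the 12797 genes tested. In the GRCm38 annotation Fos lies at chr12:85473890-85477273 (plus strand), Fosb at chr7:19302696-19310051 (minus strand) and Fosl1 at chr19:5447547-5455946 (plus strand). Fosl1 overlaps Ccdc85b on the opposite strand in the GENCODE M21 annotation, and the sources used here do not state whether counting was by strand. Fosl2, encoding Fra-2, measured 103 and 129.9 CPM against 145 and 197 CPM and did not pass (log2 fold change -0.54, 95% interval -1.01 to -0.08, adjusted p = 0.1098). Without inguinal replicate 1 the value of Fosl2 was -0.76 and passed (adjusted p = 0.01206).

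Of the Jun genes, whose products pair with Fos proteins or with each other, 0 of 3 passed. At an unadjusted p below 0.05 the count was 1 of 3, and it was 0 in edgeR and 1 in DESeq2, which called Jun (adjusted p = 0.008864). Jun measured 375 and 638 CPM in the dermal and 867 and 917 CPM in the inguinal libraries, without overlap, and the interval of its log2 fold change of -0.87 ran from -1.47 to -0.26 (adjusted p = 0.06506). Jun passed with dermal replicate 2 left out (-1.25, adjusted p = 0.01644) or with inguinal replicate 1 left out (-0.91, adjusted p = 0.03893). Jun lies opposite the annotated antisense gene Junos. Junb measured 137 and 259 CPM against 249.6 and 406 CPM, and dermal replicate 2 lay above inguinal replicate 1 (-0.76, interval -1.58 to 0.07, adjusted p = 0.1844). Junb passed when dermal replicate 2 was left out (-1.22, adjusted p = 0.03975) or when inguinal replicate 1 was (-1.11, adjusted p = 0.02493). Jund measured 48.9 and 94.2 CPM against 78.4 and 102 CPM and also overlapped (-0.40, interval -1.14 to 0.34, adjusted p = 0.422). Without dermal replicate 1 the Jund estimate was 0.07. That the Fos genes differed more than the Jun genes was not tested.

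Per kilobase of annotated exon, Jun and Fos were the most abundant of the 4 Fos and 3 Jun genes in dermal libraries, at 159 ± 58.3 and 154 ± 30.4 CPM per kb (mean ± SD, n = 2), which did not differ beyond their spread. Junb followed at 109 ± 48.0 CPM per kb, within the spread of both. Among the same genes the inguinal order was Fos at 486 ± 51.9, Jun at 279.7 ± 11.1, Junb at 181 ± 61.1 and Fosb at 149 ± 16.0 CPM per kb. Of these neighbours, only Junb and Fosb did not differ beyond their spread. Spread here is the SD of 2 libraries per depot, and no order of levels was tested. Across all 41 genes, the dermal levels next in order to Fos were those of Zfp36 at 131 ± 15.7 and Rhob at 131 ± 17.4 CPM per kb, both within its spread, and in inguinal libraries Fos was followed by Klf6 at 313 ± 24.1 and Cyr61 at 289 ± 14.9 CPM per kb, which did not differ from each other beyond their spread. Of the Fos and Jun genes, Fosl1 was the lowest in both depots, at 2.03 ± 0.729 and 14.6 ± 1.76 CPM per kb.

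The other basic leucine zipper genes of the set were Atf3, a stress-induced factor that binds AP-1 and cyclic AMP response sites, and the small MAF genes Maff and Mafk, whose products lack an activation domain. All 3 were higher in inguinal libraries and did not overlap between depots. Maff measured 20.7 and 23.3 CPM in dermal cells, against inguinal values of 133 and 120.4 CPM, and had the smallest adjusted p of the 41 genes (log2 fold change -2.50, SE 0.14, adjusted p = 0.000841). Atf3 measured 115 and 161 CPM against 483 and 451 CPM (-1.77, SE 0.18, adjusted p = 0.002965). Mafk measured 24.7 and 34.5 CPM against 76.8 and 90.0 CPM (-1.49, SE 0.19, adjusted p = 0.005616). The gene spans of Mafk, Junb and Jund overlap those of Tmem184a, Prdx2 and Gm11175 on the opposite strand. Those of Atf3, Dusp5, Csrnp1, Zfp36, Gadd45a, Ppp1r15a and Ctgf also overlap a gene on the opposite strand. Overlap was judged from whole spans, introns included, and overlap of exons was not examined. Reads in any shared exon could not be told apart if counting ignored strand. On the same strand, the span of Csrnp1 also overlaps that of Cx3cr1, a gene known from macrophages. The span of Dusp1 likewise overlaps AC122252.4 and AC122252.1. Counting by strand would not separate reads in an exon shared with these genes. In all, 6 of the 10 basic leucine zipper genes passed, each higher in inguinal libraries, against 8.80% of all tested genes. Both inguinal libraries exceeded both dermal libraries in 30.1% of tested genes. The counts of the other families, passed or without overlap, are to be read against the same shares.

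The EGR genes encode zinc finger factors that bind a GC-rich site and are induced by ERK signalling through serum response factor. All 3 were higher in inguinal libraries. Egr1 measured 123 and 224 CPM in the dermal and 391 and 542 CPM in the inguinal libraries (a log2 fold change of -1.47 with SE 0.30, adjusted p = 0.02305). Egr2 measured 12.8 and 18.0 CPM against 98.0 and 91.1 CPM, or 6.13 times the dermal mean (-2.60, SE 0.19, adjusted p = 0.001661). Egr3 was the scarcest, at 1.64 and 3.13 CPM against 8.28 and 17.5 CPM, from 18 and 33 dermal reads against 98 and 180 inguinal reads (-2.17, SE 0.41, adjusted p = 0.01907). None of the 3 overlapped between depots. The Egr1 call was lost when the variance was not modelled as a trend of expression level (adjusted p = 0.05367).

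The KLF genes encode zinc finger factors of the Krüppel-like family, of which Klf2 and Klf4 are also known from endothelial cells and Klf6 from the early phase of fat cell differentiation. Klf6 was the most abundant of the 4 per kilobase of exon, at 115 ± 16.1 CPM per kb in dermal and 313 ± 24.1 CPM per kb in inguinal libraries. Its CPM values were 437 and 533 against 1393 and 1249.6 (log2 fold change -1.45, SE 0.16, adjusted p = 0.003683). Klf4 measured 43.0 and 65.9 CPM against 125 and 167 CPM (-1.43, SE 0.24, adjusted p = 0.01264). Klf2 and Klf10 did not overlap between depots but did not pass. Klf2 measured 19.3 and 34.2 CPM against 42.6 and 46.5 CPM (-0.78, interval -1.42 to -0.15, adjusted p = 0.09612), and without dermal replicate 2 it passed (-1.19, adjusted p = 0.01768). Klf10, a gene induced by TGF-beta, measured 44.5 CPM in dermal replicate 1 and 143 CPM in dermal replicate 2, against 171 and 219 CPM in the inguinal libraries. Its estimate of -1.27 (interval -2.46 to -0.09, adjusted p = 0.131) became -2.11 without dermal replicate 2, which passed (adjusted p = 0.001583), and -0.44 without dermal replicate 1 (adjusted p = 0.3537).

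The NR4A genes encode orphan nuclear receptors that act without a known classical ligand and are induced in fat by adrenergic stimulation. All 3 were higher in inguinal libraries, without overlap. Nr4a1 measured 41.0 and 62.2 CPM in the dermal and 162 and 211 CPM in the inguinal libraries (a log2 fold change of -1.86 with SE 0.23, adjusted p = 0.00493). Nr4a2 measured 6.83 and 10.1 CPM against 26.6 and 46.2 CPM (-2.02, SE 0.31, adjusted p = 0.00929). Nr4a3 was the lowest at 2.28 and 4.27 CPM against 7.77 and 12.4 CPM (-1.51, SE 0.35, adjusted p = 0.03371). The Nr4a3 call was lost under 5 of 14 alternative settings, among them leaving out dermal replicate 1 (-1.12) and leaving out inguinal replicate 2 (-1.18).

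The DUSP genes encode dual-specificity phosphatases that switch off the kinases which induced them, Dusp1 acting mainly on p38 and JNK, and Dusp5 and Dusp6 on ERK. Dusp5 measured 2.91 and 3.51 CPM in the dermal and 8.19 and 11.9 CPM in the inguinal libraries (a log2 fold change of -1.49 with SE 0.26, adjusted p = 0.01465). Dusp2 had 16 and 8 dermal reads against 48 and 72 inguinal reads, which is 1.46 and 0.759 CPM against 4.05 and 6.98 CPM (-1.89, SE 0.37, adjusted p = 0.01992). Without dermal replicate 2 the Dusp2 call was lost (-1.58, adjusted p = 0.0552). Dusp1, the most abundant of the 4 per kilobase at 95.5 ± 22.2 and 170.3 ± 20.6 CPM per kb, measured 189 and 264 CPM against 369.5 and 439 CPM (-0.85, SE 0.19, adjusted p = 0.03115). The Dusp1 call did not survive leaving out dermal replicate 1 (-0.61, adjusted p = 0.1788), and it was lost under 4 further settings. Its GENCODE model overlaps Ergic1 on the opposite strand. Dusp6 measured 48.7 CPM in dermal replicate 1 and 119.9 CPM in dermal replicate 2, against 101 and 139.5 CPM, and did not pass (-0.63, interval -1.60 to 0.33, adjusted p = 0.323). The Dusp6 estimate was -1.28 without dermal replicate 2 (adjusted p = 0.0165) and 0.01 without dermal replicate 1.

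**Figure D2:**
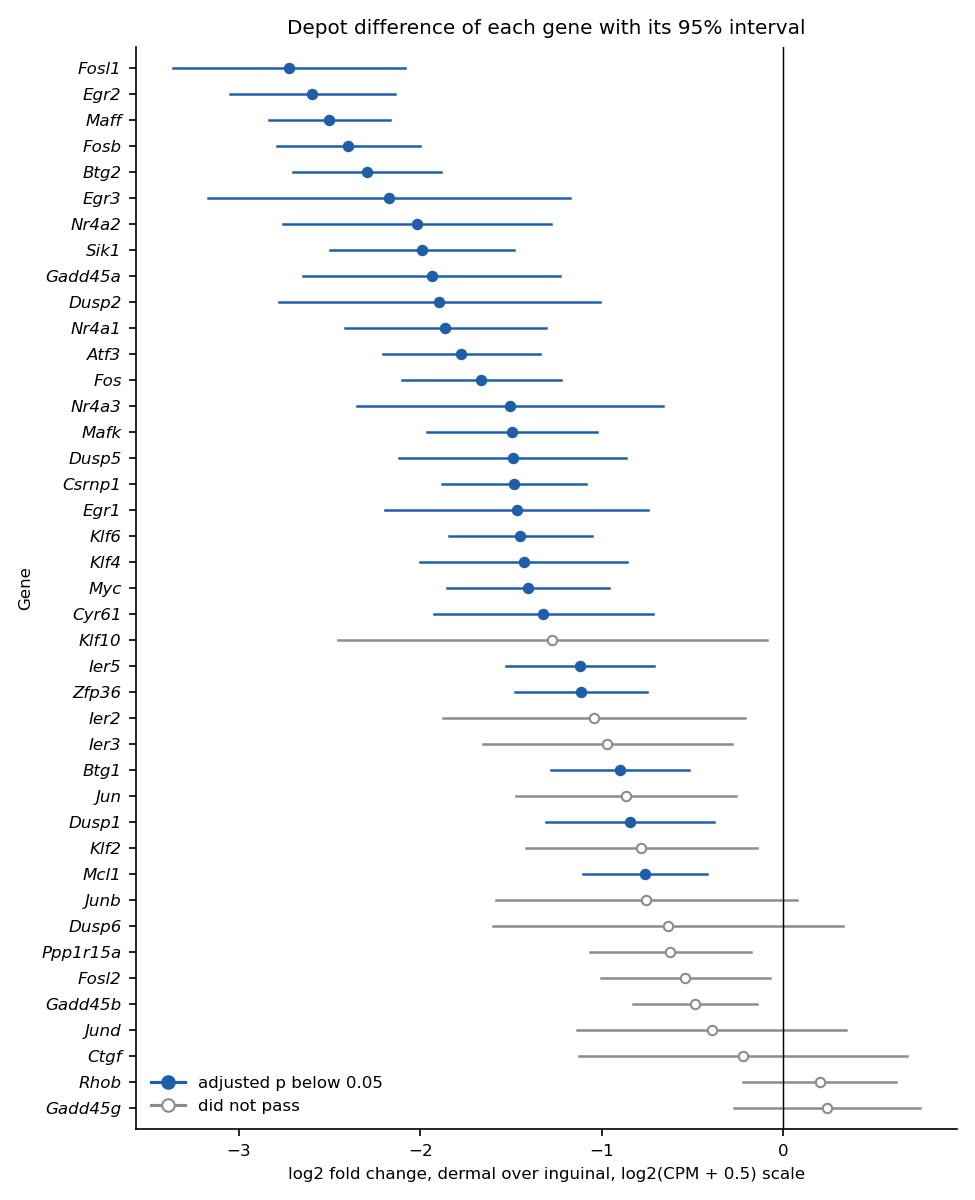
Dermal over inguinal log2 fold change from log2(CPM + 0.5) values (horizontal axis) for each of the 41 genes (vertical axis), with the 95% interval from limma as a line; filled blue points passed at an adjusted p below 0.05 and open grey points did not. Estimates run from -2.72 for Fosl1 to 0.24 for Gadd45g, and 27 genes passed, all on the inguinal side.

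Other rapidly induced regulators followed. Myc, a growth-promoting factor, measured 49.2 and 69.7 CPM in the dermal and 150.1 and 163 CPM in the inguinal libraries (a log2 fold change of -1.41 with SE 0.19, adjusted p = 0.00584). Csrnp1, a nuclear protein induced by the axis inhibitor AXIN1, measured 24.8 and 32.4 CPM against 78.8 and 81.3 CPM (-1.48, SE 0.17, adjusted p = 0.003624). Sik1, a salt-inducible kinase that restrains the CREB coactivators, measured 30.7 and 38.04 CPM against 114 and 165 CPM (-1.99, SE 0.21, adjusted p = 0.003315). Neither Myc, Csrnp1 nor Sik1 overlapped between depots. Among the short IER genes, Ier5 measured 44.8 and 60.2 CPM against 115 and 112 CPM and passed (-1.12, SE 0.17, adjusted p = 0.00905). Ier2 (37.9 and 82.1 against 102 and 131 CPM) and Ier3 (43.1 and 76.1 against 96.6 and 131 CPM) did not overlap between depots and did not pass (adjusted p = 0.09167 and 0.06677). Both passed without dermal replicate 2, at -1.60 and -1.38 (adjusted p = 0.005231 and 0.01173), and without inguinal replicate 1, at -1.23 and -1.19 (adjusted p = 0.02959 and 0.01221).

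The genes for proteins that curb growth or destabilise messenger RNA were all higher in inguinal libraries. Btg2, a partner of the CCR4-NOT deadenylase, measured 116 and 144 CPM in the dermal and 700.2 and 574 CPM in the inguinal libraries (a log2 fold change of -2.29 with SE 0.17, adjusted p = 0.001661), 4.90 times the dermal mean. Its relative Btg1 differed less in estimate, at 231 and 292 CPM against 508 and 464 CPM (-0.90, SE 0.16, adjusted p = 0.01504), which did not pass with dermal replicate 1 left out (-0.73, adjusted p = 0.1009). Zfp36, which encodes the AU-rich element binding protein tristetraprolin, measured 416 and 493 CPM against 944 and 1020.3 CPM (-1.12, SE 0.15, adjusted p = 0.006606). None of these 3 genes overlapped between depots.

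The stress and survival genes were split by the test. Gadd45a, a growth arrest gene, measured 9.56 and 17.6 CPM in the dermal and 58.3 and 44.8 CPM in the inguinal libraries (a log2 fold change of -1.94 with SE 0.29, adjusted p = 0.009279). Gadd45b measured 40.9 and 47.5 CPM against 59.5 and 64.5 CPM and did not pass (-0.49, interval -0.83 to -0.14, adjusted p = 0.06603), although without inguinal replicate 1 it did (-0.54, adjusted p = 0.0498). Gadd45g measured 102 and 159 CPM against 112 and 104 CPM, with overlap (0.24, interval -0.27 to 0.75, adjusted p = 0.4842), and the estimate was -0.07 without dermal replicate 2. Mcl1, an anti-apoptotic BCL2 relative, measured 342 and 368 CPM against 560.0 and 649.7 CPM (-0.76, SE 0.14, adjusted p = 0.01742), which did not pass with dermal replicate 1 left out (-0.71, adjusted p = 0.1253) or without dermal replicate 2 (-0.82, adjusted p = 0.08364). Ppp1r15a, which encodes the phosphatase subunit GADD34 of the integrated stress response, measured 104 and 146 CPM against 179 and 202 CPM and did not pass (-0.62, interval -1.07 to -0.18, adjusted p = 0.06751). It passed when dermal replicate 2 was left out (-0.86, adjusted p = 0.04861) or when inguinal replicate 1 was (-0.71, adjusted p = 0.03101).

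The matricellular pair Cyr61 and Ctgf, both known targets of the mechanically regulated coactivator YAP, stood at different levels. Cyr61 measured 178 and 305 CPM in the dermal and 562 and 604 CPM in the inguinal libraries (a log2 fold change of -1.32 with SE 0.25, adjusted p = 0.01889). Ctgf was scarce, at 5.73 and 7.49 CPM against 5.15 and 11.5 CPM, and did not pass (-0.22, interval -1.13 to 0.68, adjusted p = 0.7231). Its estimate was 0.32 without inguinal replicate 2. Per kilobase of exon, Cyr61 stood at 119.6 ± 44.8 and 289 ± 14.9 CPM per kb, and Ctgf at 2.38 ± 0.449 and 3.01 ± 1.63 CPM per kb. Rhob, a small GTPase gene induced by growth factors and DNA damage, measured 279 and 336 CPM against 302 and 235 CPM and overlapped (0.20, interval -0.22 to 0.62, adjusted p = 0.4785).

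The members were mostly short genes. The 41 genes spanned a median of 4984 bases and had a median of 4 exons, against 24936 bases and 9 exons for 11786 tested genes with a protein-coding GENCODE model. The pentamer ATTTA, the core of the AU-rich elements to which the Zfp36 product binds, occurred in the longest annotated 3′ untranslated region of 38 of 41 genes (92.7%), against 71.2% of 11757 tested genes. The median density was 2.50 per kb in members and 1.35 per kb in tested genes. Btg1 held 11 copies, Fosl2 and Mcl1 8 each, and Ier2, Gadd45b and Gadd45g 0. These are counts of sequence and were compared without a test.

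The spread between libraries of 1 depot had a common side in this set. In the dermal depot replicate 2 was the higher library for 40 of 41 genes, all but Dusp2, against 50.9% of all tested genes. The median log2 ratio of replicate 2 to replicate 1 was 0.48 over the 41 and 0.01 over all tested genes. In the inguinal depot replicate 2 was the higher library for 31 of 41 genes, against 54.1% of tested genes, with medians of 0.22 and 0.04. For 30 genes replicate 2 was the higher library in both depots, which was so for 35.3% of tested genes. Klf10 had the widest dermal spread, with a log2 ratio of 1.67, and Ctgf the widest inguinal spread, at 1.09. The 12 fibroblast and progenitor markers were in sum also higher in replicate 2 of both depots, amounting to 6735 and 14508 CPM in dermal replicates 1 and 2 and to 4176 and 7092 CPM in inguinal replicates 1 and 2. Their part in the spread of the immediate early genes was not tested. Comparing libraries of the same number, the median log2 fold change of the 41 genes was -1.53 between the replicate 1 libraries, with 40 negative, and -1.22 between the replicate 2 libraries, with 39 negative.

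**Figure D3:**
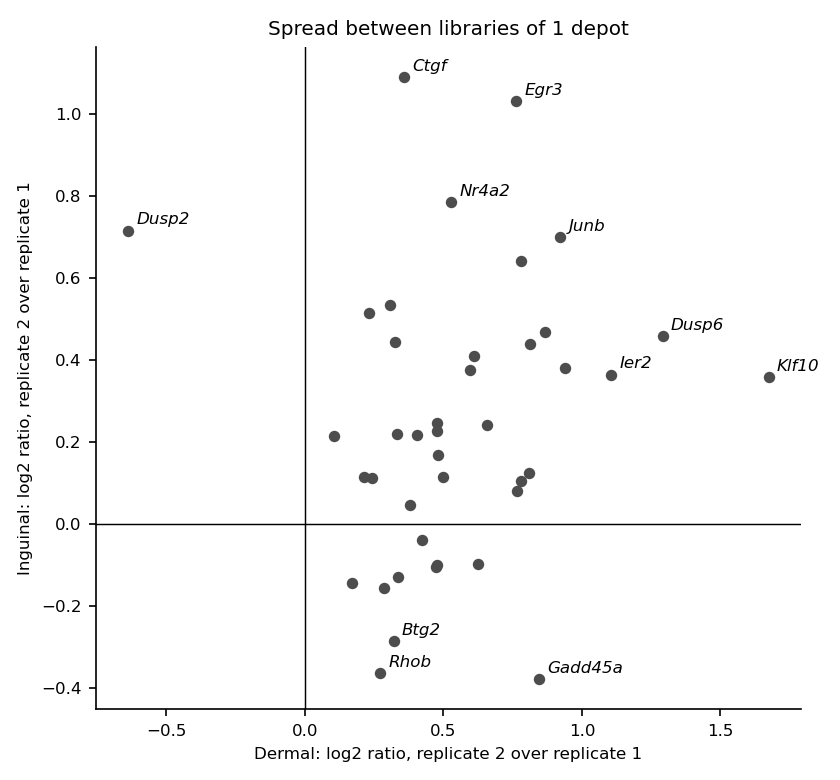
Log2 ratio of replicate 2 over replicate 1, from log2(CPM + 0.5), in the dermal depot (horizontal axis) and the inguinal depot (vertical axis), with 1 point per immediate early gene and the lines at 0. Of the 41 points, 40 lie to the right of the vertical line and 31 above the horizontal line.

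The kinases that carry the signal passed at about the share of all tested genes, which was 8.80% on the inguinal side. Of 23 tested genes for ERK, JNK and p38 kinases and their activators, 2 passed on the inguinal and 0 on the dermal side (limma; at an unadjusted p below 0.05, 3 and 1; in edgeR and DESeq2, 2 higher in inguinal libraries), with a median log2 fold change of -0.06, and the inguinal count was 1 with either dermal library left out. Map3k8, which activates ERK downstream of inflammatory receptors, measured 15.2 and 16.0 CPM in the dermal and 53.2 and 44.7 CPM in the inguinal libraries (-1.61, adjusted p = 0.002773). Mapk8, encoding JNK1, passed at -0.61 (adjusted p = 0.03102) and lost its call without dermal replicate 1 (-0.54, adjusted p = 0.2244) and without dermal replicate 2 (-0.68, adjusted p = 0.1244).

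Among 17 genes for serum response factor, its partners and CREB-pathway regulators, 6 passed on the inguinal and 0 on the dermal side (at an unadjusted p below 0.05, 8 and 4; in edgeR and DESeq2, 6 and 0). Leaving out dermal replicate 1 or 2 gave inguinal counts of 2 and 3, and leaving out inguinal replicate 1 or 2 gave 8 and 4, the last with a dermal count of 2. Crem, a cyclic AMP responsive repressor gene, measured 13.2 and 16.3 CPM in the dermal and 32.3 and 38.8 CPM in the inguinal libraries (a log2 fold change of -1.24 with SE 0.18, adjusted p = 0.008397). Elk3, an ETS partner of serum response factor, measured 13.7 and 15.7 CPM against 29.4 and 46.4 CPM (-1.30, SE 0.24, adjusted p = 0.01664). The coactivator gene Crebbp measured 129.6 and 118 CPM against 98.7 and 131 CPM (adjusted p = 0.6705). Of the other feedback inhibitors of MAP kinase signalling, 6 of 15 passed on the inguinal and 0 on the dermal side (at an unadjusted p below 0.05, 8 and 0; in edgeR 6 and 0, in DESeq2 5 and 0), and the inguinal count was 4 with either dermal library left out. The largest estimate was that of Dusp10, a phosphatase of p38 and JNK, at 32.5 and 32.8 CPM against 139 and 111 CPM (-1.91, SE 0.15, adjusted p = 0.001783). Dusp16 (-1.03, adjusted p = 0.008397) and Errfi1, an inhibitor of the EGF receptor (-0.85, adjusted p = 0.008649), also passed, Errfi1 not without dermal replicate 2 (-0.78, adjusted p = 0.07254). Dusp4, a nuclear phosphatase of ERK, measured 71.2 and 208 CPM in dermal replicates 1 and 2 and 79.1 and 140.6 CPM in the inguinal libraries, with overlap (0.21, adjusted p = 0.8133).

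The counts of the next lists, of 9 to 13 genes each, are small and are to be read against the 8.80% and 7.56% of all tested genes that passed on the inguinal and dermal sides. Of 10 partners, 2 passed on the inguinal side and 2 on the dermal side. Maf, which macrophages also express, passed on the dermal side (log2 fold change 0.91, adjusted p = 0.01279). The Maf call did not survive leaving out dermal replicate 2 (0.84, adjusted p = 0.06791). The inguinal calls, Atf4 (-0.74, adjusted p = 0.04762) and Nab1 (-0.58, adjusted p = 0.02523), were lost without dermal replicate 1 (adjusted p = 0.2636 and 0.1977), and that of Nab1 also without dermal replicate 2 (0.1353). Of 9 other KLF genes, 2 were higher in inguinal libraries and 1, Klf15, was higher in dermal libraries (0.88, adjusted p = 0.02663), and 0 of these 3 calls held without dermal replicate 1. The inguinal calls were Klf7 (-0.94, adjusted p = 0.04088) and Klf11 (-0.90, adjusted p = 0.0481), which without inguinal replicate 2 did not pass (adjusted p = 0.09598 and 0.05305). Of 13 further YAP and TEAD targets and regulators, 1 was higher in inguinal libraries, the coagulation initiator F3 (-1.86, adjusted p = 0.004907), and 1 in dermal libraries, Amotl1 (0.54, adjusted p = 0.03523), the latter lost without dermal replicate 1 (adjusted p = 0.2645) or 2 (0.1796). These counts of 1 of 13 are near the shares over all tested genes.

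Rapid-response genes outside the set passed more often on the inguinal than on the dermal side. Over all tested genes these shares were 8.80% and 7.56%, and the dermal count of this list is near its share. Of 50 tested, 27 passed on the inguinal side and 4 on the dermal side, with a median log2 fold change of -0.92, and the inguinal count was 19 without dermal replicate 1. Il6 measured 16.9 and 18.0 CPM in the dermal and 127 and 122 CPM in the inguinal libraries (-2.80, SE 0.13, adjusted p = 0.0006644). Irf1 measured 145 and 143 CPM against 773 and 775 CPM (-2.42, SE 0.12, adjusted p = 0.0006644), and Ifrd1 324 and 318 CPM against 1169 and 879 CPM (-1.66, SE 0.17, adjusted p = 0.003112). The 4 genes higher in dermal libraries, named after their values were seen, were the inducible heat shock genes Hspa1b (2.04, adjusted p = 0.004221) and Hspa1a (1.34, adjusted p = 0.01126), the growth factor gene Areg (2.69, adjusted p = 0.005925) and the signalling regulator Rgs1 (1.66, adjusted p = 0.01356). Hspa1a and Hspa1b are near-identical copies, so reads may have been divided between them uncertainly. Of the other heat shock genes and cochaperones of that list, Hspb1 (0.09), Hsph1 (0.23) and Dnajb1 (-0.87, adjusted p = 0.05332) did not pass, and Bag3 was higher in inguinal libraries (-0.75, adjusted p = 0.03911). The Hsph1 estimate was 0.69 without inguinal replicate 1 and -0.24 without inguinal replicate 2. That of Hspb1 was -0.10 without dermal replicate 2 and also without inguinal replicate 2. Dnajb1 passed in DESeq2 (adjusted p = 0.00768) and when replicate 2 of the dermal (-1.22, adjusted p = 0.01222) or of the inguinal depot (-0.98, adjusted p = 0.01837) was left out, and Bag3 did not pass without dermal replicate 1 (-0.51, adjusted p = 0.2288).

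Markers of other cells differed between the depots beside these genes. Of 20 endothelial markers, 19 were higher in inguinal libraries, none of the 20 had a positive estimate, and the median was -1.92. They summed to 679.7 and 706 CPM in dermal cells, against 2289.9 and 3413 CPM in inguinal cells, and Cdh5 and Ptprb, the highest in mean CPM, had log2 fold changes of -2.06 and -2.02. Pericyte and smooth muscle markers were higher in inguinal libraries for 9 of 11 genes, a count of 5 without dermal replicate 1. Cspg4, the highest of that list in mean CPM, went the other way, at 191 and 180.3 against 113 and 82.2 CPM (0.94, adjusted p = 0.01735), and did not pass without dermal replicate 1 (adjusted p = 0.06969). Of the red blood cell genes, 8 of 9 entries passed on the inguinal side, some of which share their values. Macrophage markers went the other way, with 12 of 14 higher in dermal libraries and sums of 2267 and 2128 against 807 and 738 CPM, and F13a1 and Mrc1 had log2 fold changes of 1.66 and 1.57. Keratinocyte markers were higher in dermal libraries for 5 of 7 genes and summed to 87.5 and 55.5 against 26.3 and 18.9 CPM, and the count was 3 without dermal replicate 1. Skeletal muscle markers were so for 1 of 7 genes, or 0 with any 1 of the 4 libraries left out, and summed to 100.3 and 81.4 against 88.0 and 54.0 CPM. The fibroblast and progenitor markers gave 0 calls in inguinal and 1 in dermal libraries (3 and 3 at an unadjusted p below 0.05; edgeR and DESeq2 gave 0 and 1 inguinal calls), and the dermal count was 3 without dermal replicate 1 or without inguinal replicate 2, while the inguinal count was 3 without inguinal replicate 1. Lymphocyte markers summed to at most 7.56 CPM and neutrophil markers to at most 18.0 CPM in any library, with Cd79a and Ms4a1 at 0 reads in both dermal libraries. All of these lists, the immediate early set included, may draw on several cell types, and the part of the endothelial, mural and red blood cell markers in the inguinal values was not tested.

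**Figure D4:**
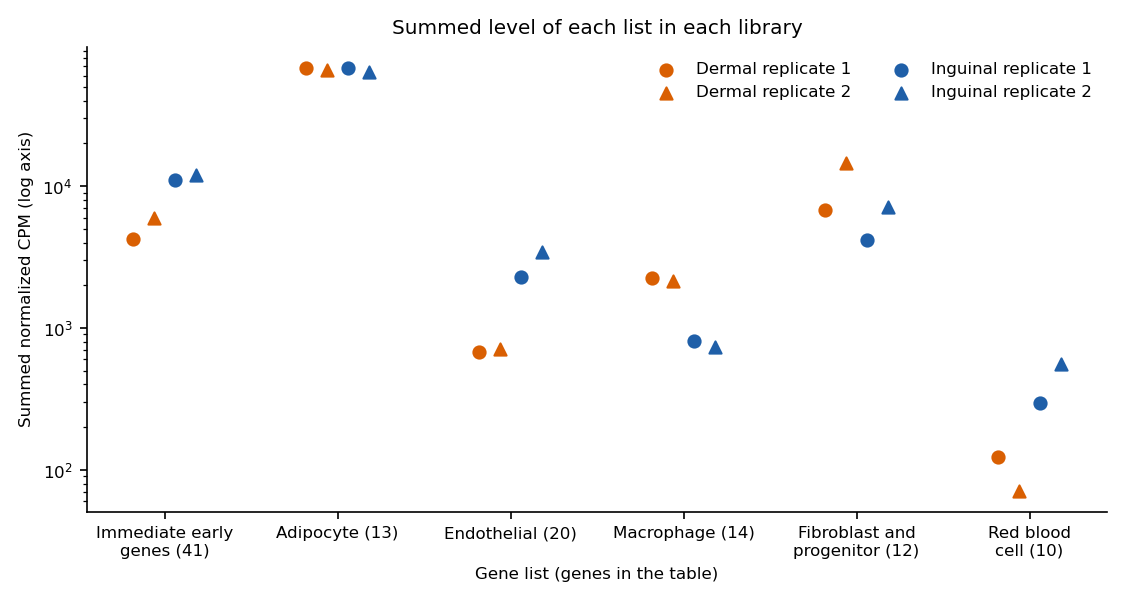
Summed normalized CPM (log axis) of 6 gene lists in each library (orange, dermal; blue, inguinal; circles, replicate 1; triangles, replicate 2), with the number of genes of each list in the table. The immediate early sums are 4230 and 5996 CPM (dermal) against 11081 and 11979 CPM (inguinal). Endothelial sums are higher and macrophage sums lower in inguinal libraries, and adipocyte sums lie between 63444 and 67842 CPM.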

How the data were processed

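Gene expression was measured by RNA-seq of DNase-treated total RNA with a stranded library kit, per the labels' protocols, in 2 dermal and 2 inguinal libraries. The deposited signal values are normalized CPM that the authors computed per gene. Per the submitters' processing notes, the tools were TopHat2 2.0.12, Subread 1.4.6 with featureCounts, edgeR, Picard 1.127, FastQC and bcl2fastq, and the build mm10, with no roles or settings given. Values were whole multiples of 1 step per library (100% within 0.001 of a whole number), so reads were recovered: 1 read was worth 0.0844 to 0.0969 CPM, and 3 reads 0.253 to 0.291 CPM. Groups and replicate numbers came from sample titles.

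Genes with at least 1 CPM in at least 2 libraries were tested on log2(CPM + 0.5) in limma 3.58.1 (R 4.3.3), the variance following a trend of expression level, by two-sided tests with Benjamini-Hochberg adjustment over all 12797 genes and a threshold of 0.05. This scale understates the change of low genes. The script was tested on simulated data. Alternatives covered the pseudocount, filter, trend, scaling, edgeR 4.0.16 and DESeq2 1.42.0 on recovered reads, a replicate block and each library left out. Levels per kb used exon lengths from GENCODE M21 (GRCm38). The members and lists were chosen with earlier results of these data known. Named genes were all 41 members and, in other lists, the 2 with the smallest adjusted p among those that passed and the 2 with the highest mean (markers, only the latter); any further gene was picked with its values in view. Of the context genes so chosen, Rps6ka3, Crebbp, Klf9 and Wwtr1 did not pass, and some are not reported here. On the recovered reads, edgeR called 1133 genes higher in inguinal and 923 in dermal libraries.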

Additional observations from a re-analysis of the deposited data

How the results depend on the processing

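Of 573 pairs of a member and an alternative setting, 524 kept the direction and the side of the threshold, 15 lost and 30 gained a call, and 4 changed sign. Of the 27 genes higher in inguinal libraries, 21 kept their call under all 14 settings; the exceptions were Egr1, Nr4a3, Dusp1, Dusp2, Btg1 and Mcl1. The sign changes each came from leaving out 1 library and none concerned a gene that had passed: Ctgf ran from -0.77 (without inguinal replicate 1) to 0.32 (without inguinal replicate 2), Dusp6 from -1.28 and Jund from -0.87 (without dermal replicate 2) to 0.012 and 0.074 (without dermal replicate 1), and Gadd45g from -0.074 (without dermal replicate 2) to 0.55 (without dermal replicate 1). With each library left out in turn, the members higher in inguinal libraries numbered 23 to 34 and their median log2 fold change ran from -1.61 to -1.04, while all genes higher in dermal libraries numbered 339 to 1212 and in inguinal libraries 568 to 1470. In those fits the lone library of a depot is assumed to vary like the other depot. The cause of these shifts was not tested. Under the other settings without a block the member count was 24 to 31. Over all genes tested under these settings, 4.83% to 9.33% passed on the inguinal side. Without any filter 18781 genes entered, and 25 members passed, against 4.83% of all genes.

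The labels do not say that equal replicate numbers share an animal or batch. The deviations of same-numbered libraries from their depot means correlated at r = 0.46 across 12797 genes, which are not independent. With the replicate block, 2342 genes passed on the dermal side and 2384 (18.6%) on the inguinal side, and 38 of 41 members were higher in inguinal libraries, including all 27 of the fit without it. Scarce members rest on few reads, such as the 16 and 8 dermal reads of Dusp2, and 2 libraries per depot leave wide intervals for genes such as Klf10 and Dusp6.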
